A study of Rattus norvegicus with 59 samples.

Results

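The genes described are Lilrb4, Lilrb4-2, Oscar and Fcar, whose symbols belong to the immunoglobulin-like receptors of the leukocyte receptor complex, and Tyrobp, an adaptor of myeloid and natural killer cell receptors. They were picked by name as a gene family, 5 of the 2887 complete gene entries in the lung expression table, with earlier results of these data known. The lungs came from male Fischer 344 rats, bought at 3 months of age, that breathed crystalline silica at 15 mg/m3 for 6 hours a day on 5 days in a whole-body chamber, or air in the same way. Lungs were taken at 6 times after exposure: months 1, 3, 6, 9, 12 and 18. Each silica group held 5 rats, and each air group held 5 except the 9-month air group, which held 4. RNA from a piece of each lung gave 59 libraries, 30 from silica and 29 from air, and levels are in FPKM, fragment numbers scaled for transcript length and library size.

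Receptors of the leukocyte receptor complex come in paired families with similar outer domains and opposite signals. Inhibitory members carry tyrosine motifs, called ITIMs, in their own tails and recruit phosphatases, whereas activating members have short tails and borrow the ITAM motif of an adaptor chain. Tyrobp, also known as DAP12, is such an adaptor and recruits the kinase Syk. Lilrb4 is an inhibitory receptor of myeloid cells with ITIMs. Oscar binds collagen and is known from osteoclasts and monocytes of mouse and human, and Fcar is, in human, the myeloid receptor for IgA. Both of these are known to signal through the Fc receptor gamma chain rather than through Tyrobp. In the lung, macrophages and neutrophils are among the cells that carry such receptors.

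The RefSeq table of the rat assembly GRCr8 held 4 of the 5 symbols, all on chromosome 1, and Lilrb4-2 was not matched. In its gene order Fcar, Kir3dl1, Lilrb4, Lilrb3 and Lilra5 follow each other, Oscar lies next to Tarm1l1 and Tarm1, and Tyrobp lies next to Hcst, the gene of a second adaptor. RefSeq promoters on GRCr8 are shown for the 3 receptor genes that moved together with silica, each with 300 bases around the annotated start, most of them before it, 5′ to 3′ on the gene's strand. The first is Lilrb4 at chr1:78853203-78853502 on the minus strand, then Oscar at chr1:74522633-74522932 on the plus strand and Fcar at chr1:78703174-78703473 on the minus strand. Capitals mark matches to the C/EBP letters TTNNGNAA and the AP-1 letters TGANTCA, motifs of factors active in myeloid genes, searched on both strands.
Lilrb4: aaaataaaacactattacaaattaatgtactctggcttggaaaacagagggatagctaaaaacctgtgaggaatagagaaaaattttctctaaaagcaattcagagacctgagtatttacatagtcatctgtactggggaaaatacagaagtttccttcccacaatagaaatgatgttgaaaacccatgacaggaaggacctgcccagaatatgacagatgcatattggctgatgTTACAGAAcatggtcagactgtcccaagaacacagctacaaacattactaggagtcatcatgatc
Oscar: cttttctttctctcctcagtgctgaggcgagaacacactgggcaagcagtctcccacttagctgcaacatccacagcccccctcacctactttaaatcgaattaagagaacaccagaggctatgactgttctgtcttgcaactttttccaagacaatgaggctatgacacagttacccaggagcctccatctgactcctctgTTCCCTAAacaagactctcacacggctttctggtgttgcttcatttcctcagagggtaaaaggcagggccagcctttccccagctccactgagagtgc
Fcar: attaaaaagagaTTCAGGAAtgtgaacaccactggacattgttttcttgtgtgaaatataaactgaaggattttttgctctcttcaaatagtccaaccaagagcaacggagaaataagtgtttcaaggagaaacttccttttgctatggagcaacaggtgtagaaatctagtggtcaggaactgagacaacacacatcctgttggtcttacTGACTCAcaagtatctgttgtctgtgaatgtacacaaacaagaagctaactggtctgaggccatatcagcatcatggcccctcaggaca
Each of the 3 windows held 1 match to the C/EBP letters, which are also in 41.3% of the 33469 RefSeq promoters of the same length. The Fcar window alone held the AP-1 letters, found in 7.33% of all promoters. The PU.1 letters GAGGAAG, in 12.4% of all promoters, and the MITF and TFE letters CACGTG, in 6.42%, had no match in any of the 3 windows. The matches in the Fcar window do not overlap each other, and a match describes letters only.

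The table covered part of the genome: of its entries 2061 had a name known to RefSeq, and 2045 of these lay on chromosome 1. FPKM summed to between 12025 and 16336 per library when LOC102553223, an entry of up to 25818 FPKM, was set aside. Depth was therefore judged from the smallest FPKM values, which fall on steps. This relative depth ran from 0.431 to 2.27 of a typical library with no month at which silica and air libraries differed in it beyond their spread (two-sided exact permutation p between 0.119 and 0.746, n = 5 and 5, or 5 and 4). Napsa, a peptidase of surfactant-making alveolar cells that checks the labelled tissue, was at 76.5 FPKM or more in every silica library and at 71.5 FPKM or more in every air library. One library stood apart from its group. In replicate 3 of the 12-month silica group Tyrobp was at 57.0 FPKM and Lilrb4 at 9.31 FPKM, and the neutrophil gene Cd177 was at 12.7 FPKM and the macrophage genes Itgax and C5ar1 at 4.00 FPKM each, all within or below the range of the 12-month air libraries. The other 4 silica libraries of that month had 31.8 FPKM or more of Cd177, and the main results that rest on this library are given with and without it.

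Averaged over the 6 times, 4 of the 5 genes were higher in silica lungs than in air lungs. Lilrb4 rose 2.17-fold, or 1.12 ± 0.078 on the log2 scale (SE, adjusted p by limma = 2.70e-17). Fcar rose 1.68-fold (0.75 ± 0.068, limma adjusted p = 1.22e-13) and Oscar 1.58-fold (0.66 ± 0.052, limma adjusted p = 1.71e-15). The adaptor Tyrobp rose 1.48-fold (0.56 ± 0.056, limma adjusted p = 2.68e-12). These are folds of FPKM + 0.5, which understate the low genes Oscar and Fcar. The ratio of mean FPKM at single times ran from 1.82 to 2.29 for Oscar and from 1.81 to 3.86 for Fcar. It ran from 1.25 to 3.80 for Lilrb4 and from 1.35 to 1.70 for Tyrobp. Lilrb4-2 changed by -0.023 ± 0.19 (limma adjusted p = 0.930). Of all 1278 tested genes 37.5% were called higher in this comparison, so a call as such is common, and Lilrb4 had the eleventh largest change among them. Without the 12-month silica replicate 3 the changes were 1.17 ± 0.058 for Lilrb4, 0.79 ± 0.058 for Fcar, 0.68 ± 0.051 for Oscar and 0.61 ± 0.040 for Tyrobp. In RNA of whole lung, more cells of a type and more RNA per cell cannot be told apart. All 5 genes passed the filter of 1 FPKM in 4 libraries, but Oscar and Fcar passed through silica libraries: each reached 1 FPKM in 20 of 30 silica libraries, against 1 of 29 air libraries for Oscar and 0 of 29 for Fcar.

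**Figure D1:**
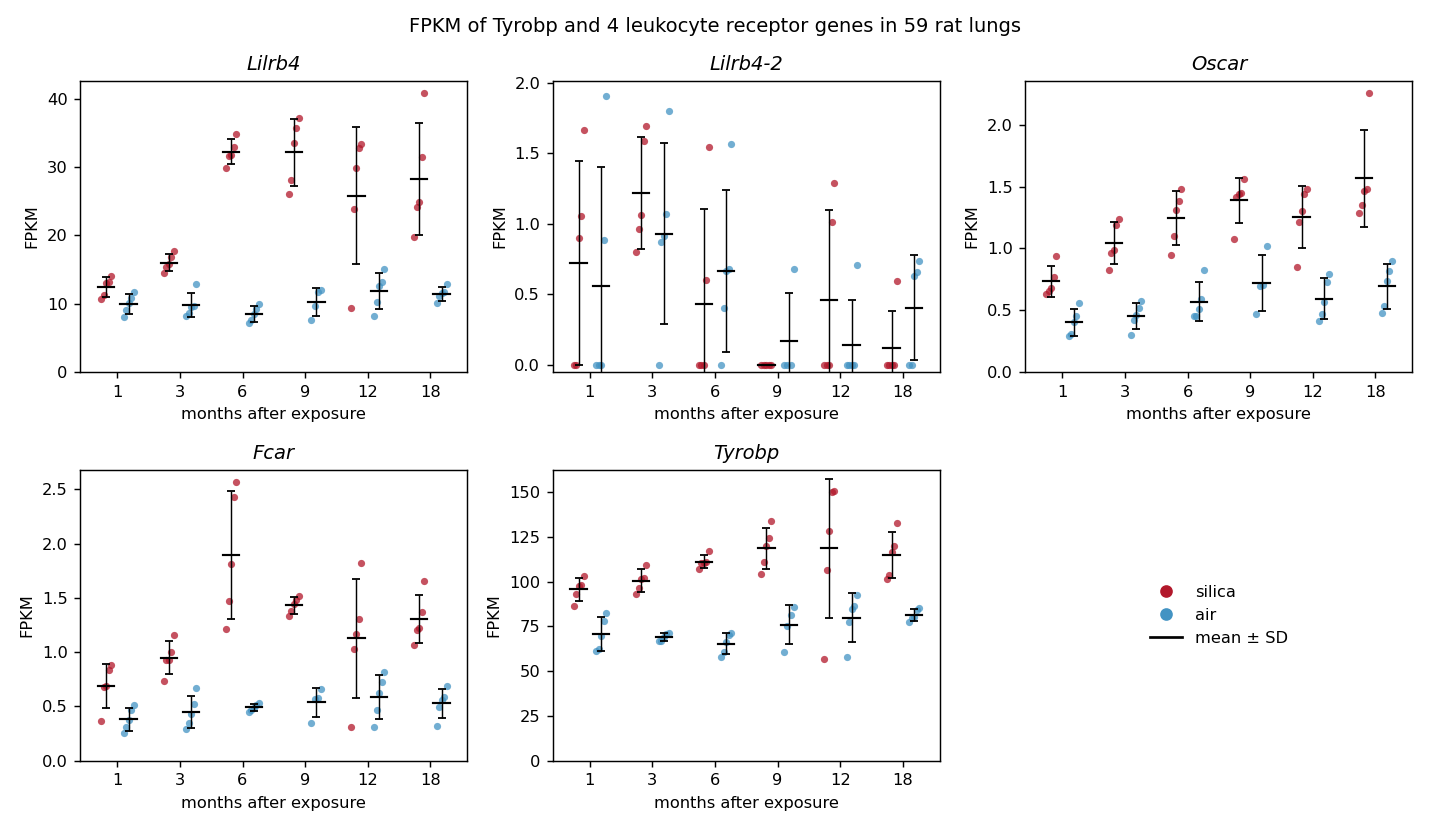
FPKM of the 5 genes in each library against months after exposure, with silica to the left of air at each time; points are rats, bars are the group mean ± SD (n = 5, and n = 4 in the 9-month air group). Silica and air points of Oscar are apart at all 6 times, Tyrobp is apart at all but month 12, and Lilrb4-2 is at 0 in 31 of the 59 libraries. The share of all tested genes whose points are apart was not computed.

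Lilrb4, the inhibitory receptor, had changes that differed between times. At 1 month the 5 silica lungs had 10.7, 11.3, 13.2, 13.1 and 14.0 FPKM, against 9.08, 10.1, 11.7, 10.9 and 8.13 FPKM in air lungs. At 3 months silica lungs had 16.8, 17.7, 15.3, 15.8 and 14.5 FPKM, and air lungs 8.65, 9.59, 12.8, 9.67 and 8.24 FPKM. The groups overlapped at 1 month and were separate at 3 months, where the lowest silica lung was above the highest air lung. How many of all tested genes had separate groups was not computed, here and for the genes below. At 6 months silica lungs reached 31.6, 29.9, 31.8, 34.8 and 33.0 FPKM, while air lungs had 8.43, 7.69, 9.93, 7.15 and 9.20 FPKM. At 9 months they had 28.1, 26.0, 35.8, 33.5 and 37.2 FPKM, against 9.62, 12.0, 7.61 and 11.8 FPKM in air. At both times every silica lung had far more Lilrb4 than any air lung of its month. At 12 months silica lungs had 33.3, 23.8, 9.31, 32.8 and 29.9 FPKM and air lungs 15.1, 12.6, 13.1, 8.28 and 10.2 FPKM. At 18 months silica lungs had 24.2, 31.4, 24.9, 40.9 and 19.8 FPKM and air lungs 11.5, 11.2, 12.9, 10.1 and 11.7 FPKM. The groups overlapped at 12 months through replicate 3 alone and were separate at 18 months, with the highest value of the study in a silica lung of that month.

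The log2 change of Lilrb4 was 0.31 ± 0.19 at 1 month (SE, limma adjusted p = 0.349), which did not pass the threshold of 0.05. It passed at the other 5 times, with 0.70 ± 0.19 at 3 months (limma adjusted p = 0.00732), 1.87 ± 0.19 at 6 months (2.94e-10), 1.61 ± 0.20 at 9 months (5.22e-08), 0.99 ± 0.19 at 12 months (1.40e-04) and 1.22 ± 0.19 at 18 months (9.58e-06). At 6 months it had the smallest p of all 1278 tested genes and the second largest rise. Without replicate 3 the 12-month change was 1.32 ± 0.15 (limma adjusted p = 7.14e-10). Of all tested genes 8.45% were called higher at 1 month, 15.9% at 3 months, 21.2% at 6 months, 19.5% at 9 months, 14.6% at 12 months and 11.8% at 18 months. Of the 5 genes, 2 were called higher at 1 month, Oscar and Tyrobp, and 4 at each later time, with Lilrb4-2 called at none.

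The change of Lilrb4 varied between the times (F = 9.11, limma adjusted p = 0.00195), the second smallest p of the 1278 genes, of which 1.33% were called. Without the 12-month silica replicate 3 the adjusted p of this limma test was 7.16e-07. Between neighbouring times, the change at 6 months exceeded that at 3 months by 1.18 ± 0.27 (limma adjusted p = 0.0379), and 0.235% of tested genes were called in this contrast, 3 in all. This call is a narrow one: it was lost in 12 of the 20 fits that left out 1 library of those months, with a limma adjusted p of up to 0.107, although the difference stayed between 1.08 and 1.23. No difference was called for Lilrb4 between 3 and 1 months (0.39 ± 0.27, 0.156% of genes called), 9 and 6 months (-0.26 ± 0.28), 12 and 9 months (-0.62 ± 0.28) or 18 and 12 months (0.23 ± 0.27). In each of these last 3 contrasts limma called 0% of the tested genes, with 72, 78 and 63 genes at an unadjusted p under 0.05. Without the 12-month silica replicate 3 the difference between 12 and 9 months was -0.29 ± 0.21, and that between 18 and 12 months turned to -0.096 ± 0.20, so neither value has a settled size. The change at 18 months was 0.91 ± 0.27 above that at 1 month (limma adjusted p = 0.143, 0.156% of genes called), and this difference was called when libraries were weighted (0.92, limma adjusted p = 0.00662). Age was not called for Lilrb4 in air lungs, where 18 months stood 0.20 ± 0.19 above 1 month (limma adjusted p = 0.496).

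**Figure D2:**
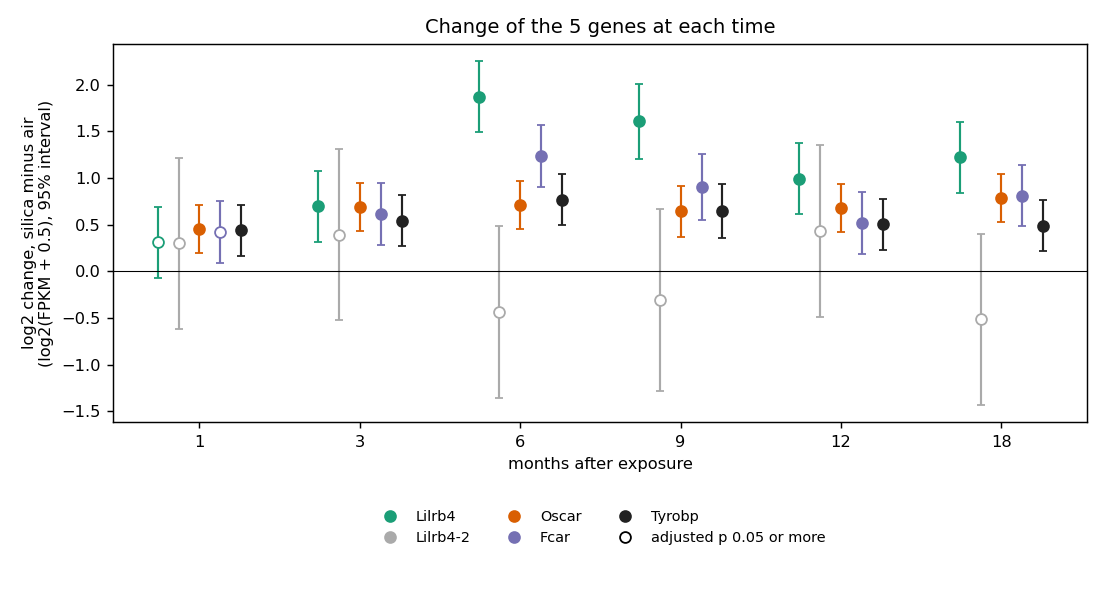
Log2 change of each gene, silica minus air on log2(FPKM + 0.5), at each time after exposure, with 95% intervals from the fit over 59 libraries; filled points have an adjusted p under 0.05. Lilrb4 goes up to 1.87 at 6 months, and the Oscar and Tyrobp points lie between 0.44 and 0.79 at all 6 times.

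Tyrobp, the adaptor, had the highest level of the 5 genes on the FPKM scale, which allows for transcript length. At 1 month silica lungs had 86.2, 103, 98.4, 93.1 and 97.5 FPKM, and air lungs 82.3, 69.8, 61.5, 77.9 and 62.2 FPKM. At 6 months silica lungs had 117, 107, 111, 110.2 and 111 FPKM, against 71.6, 60.7, 70.3, 57.9 and 66.1 FPKM in air lungs. The groups were separate at both times. At 12 months silica lungs had 150.1, 107, 57.0, 151 and 128 FPKM and air lungs 92.8, 84.7, 86.7, 57.8 and 77.5 FPKM. Here replicate 3 lay below every air lung, and the other 4 silica lungs above every air lung. At 3, 9 and 18 months silica lungs ranged over 93.2 to 109.5, 104 to 134 and 102 to 133 FPKM, while air lungs ranged over 66.6 to 71.5, 60.8 to 85.9 and 77.7 to 85.1 FPKM.

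The log2 change of Tyrobp was 0.44 ± 0.14 at 1 month (SE, limma adjusted p = 0.0312), 0.54 ± 0.14 at 3 months (0.00365), 0.77 ± 0.14 at 6 months (2.30e-05), 0.65 ± 0.14 at 9 months (4.64e-04), 0.50 ± 0.14 at 12 months (0.00504) and 0.49 ± 0.14 at 18 months (0.0104). Without replicate 3 the 12-month change was 0.75 ± 0.10. The call at 1 month was lost without any of 7 of the 10 libraries of that month (limma adjusted p up to 0.0919) and after median centring (0.0871), and that at 18 months after quantile normalization, where the change was 0.21. A difference between times was not called for Tyrobp (limma F test adjusted p = 0.784), nor a difference between air at 18 months and air at 1 month (0.21 ± 0.14, limma adjusted p = 0.287).

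Oscar, the collagen receptor, was low in all lungs and separate between silica and air at each of the 6 times. The share of all tested genes separate in this way was not computed. An exact permutation p of up to 0.0317, a looser limit, was met with higher silica in 15.7% of tests over all genes and times. At 1 month silica lungs had 0.652, 0.768, 0.677, 0.632 and 0.941 FPKM, against 0.556, 0.311, 0.295, 0.402 and 0.450 FPKM in air lungs. At 12 months silica lungs had 1.48, 1.44, 0.846, 1.30 and 1.21 FPKM and air lungs 0.730, 0.797, 0.563, 0.416 and 0.467 FPKM. Replicate 3 was the lowest silica lung here too, but unlike for Tyrobp it stayed above every air lung of the month. At 18 months silica lungs had 1.35, 2.26, 1.48, 1.46 and 1.28 FPKM and air lungs 0.735, 0.898, 0.478, 0.536 and 0.814 FPKM. Means at 3, 6 and 9 months were 1.04 ± 0.17, 1.24 ± 0.22 and 1.39 ± 0.18 FPKM in silica lungs, and 0.455 ± 0.10, 0.568 ± 0.16 and 0.721 ± 0.23 FPKM in air lungs (SD, n = 5 each, and n = 4 for air at 9 months).

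The log2 change of Oscar ran from 0.45 ± 0.13 at 1 month (SE, limma adjusted p = 0.0158) to 0.79 ± 0.13 at 18 months (1.78e-05), was called at all 6 times, and was not shown to vary between them (limma F test adjusted p = 0.784). The 1-month call was lost after median centring (change 0.36, limma adjusted p = 0.0669) and quantile normalization (0.33, 0.125), and in 3 of 10 fits without 1 library. Without the 12-month silica replicate 3 the change at that month was 0.77 ± 0.13, against 0.68 ± 0.13 with it. The ratio of mean FPKM, which the pseudocount does not shrink, lay between 1.82 at 1 month and 2.29 at 3 months. Oscar was also the single gene of the 5 called with age in air, 0.40 ± 0.13 higher at 18 months than at 1 month (limma adjusted p = 0.0195), in a comparison that called 21.8% of tested genes. The limma F test over the 6 air groups gave Oscar an adjusted p of 0.0406, where 28.9% of genes were called. That F test was not called for Oscar with a pseudocount of 1 (0.0666), with no filter (0.0591), with median centring (0.117), with quantile normalization (0.314), in a fit of the air groups alone (0.0859) or in 12 of 29 fits without 1 library. With library weights it called Lilrb4 (limma adjusted p = 0.0116) and Tyrobp (0.0157) as well. The age call was lost after median centring (0.31, limma adjusted p = 0.0644) and quantile normalization (0.27, 0.133).

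Fcar, the IgA receptor gene, was as low as Oscar and had its largest change at 6 months. At that time silica lungs had 2.43, 1.81, 1.21, 2.56 and 1.47 FPKM, and air lungs 0.448, 0.491, 0.510, 0.470 and 0.536 FPKM. The 5 air lungs lay close together and the silica lungs were spread widely above them. At 1 month silica lungs had 0.365, 0.681, 0.885, 0.687 and 0.839 FPKM and air lungs 0.513, 0.308, 0.465, 0.252 and 0.375 FPKM, so that a single silica lung lay within the air range. At 12 months silica lungs had 1.82, 1.03, 0.314, 1.17 and 1.31 FPKM and air lungs 0.821, 0.727, 0.626, 0.314 and 0.464 FPKM. Replicate 3 lay at the level of the lowest air lung, and the other 4 silica lungs lay above all 5 air lungs. At 3, 9 and 18 months the groups were separate, with silica lungs at 0.730 to 1.16, 1.33 to 1.52 and 1.07 to 1.66 FPKM and air lungs at 0.293 to 0.667, 0.344 to 0.661 and 0.324 to 0.690 FPKM.

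The log2 change of Fcar was 0.42 ± 0.16 at 1 month (SE, limma adjusted p = 0.10), which was not called, and 1.24 ± 0.16 at 6 months (1.16e-07). It was 0.62 ± 0.16 at 3 months, 0.90 ± 0.17 at 9 months, 0.52 ± 0.16 at 12 months and 0.81 ± 0.16 at 18 months, with limma adjusted p between 7.15e-05 and 0.0170. Without replicate 3 the 12-month change was 0.75 ± 0.15. Without air replicate 4, silica replicate 1 or silica replicate 5 of that month the call was lost, with changes of 0.42, 0.37 and 0.46 and limma adjusted p of 0.0691, 0.118 and 0.0569. On mean FPKM the 6-month ratio was 3.86, close to the 3.80 of Lilrb4, while their log2 changes differ because the pseudocount weighs more on Fcar. A difference between times did not pass for Fcar (limma F test, unadjusted p = 0.0128, adjusted p = 0.186, and 0.0589 without the 12-month silica replicate 3).

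Two-sided exact permutation tests of each gene at each time, adjusted over 30 tests, cannot go below an unadjusted p of 0.00794 with 5 against 5 rats. They called Oscar at 6 of 6 times, Tyrobp and Fcar at 5, Lilrb4 at 4 and Lilrb4-2 at 0. The largest unadjusted p among these calls was 0.0317, and over all tested genes and the 6 times 15.7% of 7668 tests were higher in silica with a p as small. Beside the limma calls, Fcar at 1 month passed here (adjusted exact p = 0.0476), whereas Lilrb4 (0.0541), Fcar and Tyrobp (0.149 each) did not pass at 12 months, the month of replicate 3. Oscar and Fcar passed the filter through silica libraries, as given above, which limits what their counts of calls show beside Lilrb4 and Tyrobp.

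Lilrb4-2, listed as a second Lilrb4 entry, gave little signal. It was listed at 0 in 17 of 30 silica libraries and 14 of 29 air libraries, and its values above 0 lay between 0.405 and 1.90 FPKM. Multiplied by the relative depth, 20 of these 28 values fell at 1 step, between 0.655 and 0.927, and the other 8 at a second step, between 1.33 and 1.74. Added up, this gave 17 steps in silica and 19 in air libraries. A step can be a single read or read pair, which the FPKM do not settle. The entry was above 0 in 14 of 20 libraries at months 1 and 3, silica and air together, and in 14 of 39 libraries at months 6 to 18. All 5 silica lungs of month 9 were at 0, so no fold is given. As Lilrb4 and Lilrb4-2 have like names and may share sequence, reads that fit both could have been counted to either, which the sources used here do not describe.

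In order of mean FPKM, the 5 later silica groups led for Lilrb4, with 32.2 ± 1.8 at 6 months and 32.1 ± 4.9 at 9 months, 28.2 ± 8.2 at 18 months, 25.8 ± 9.97 at 12 months and 16.0 ± 1.2 at 3 months (SD, n = 5 each). The 3-month silica group and the next, 12.5 ± 1.4 in silica at 1 month, did not overlap. All other neighbours in the order overlapped, down through the air groups from 11.9 ± 2.6 at 12 months to 8.48 ± 1.1 at 6 months. For Tyrobp the 6 silica groups stood above the 6 air groups, and the 1-month silica group, at 95.7 ± 6.4, and the 18-month air group, at 81.4 ± 3.1, were the only neighbours without overlap. For Oscar and Fcar every pair of neighbours overlapped, including the lowest silica group, that of 1 month, and the highest air group.

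The ratio of a receptor to Tyrobp within a library asks whether the receptor changed by another amount than the adaptor. As given above, Oscar and Fcar are known to signal through another chain, and Lilrb4 carries its own ITIMs. The ratio therefore does not describe a receptor beside its signalling partner. Lilrb4 was at 13.04% ± 1.4 of the FPKM of Tyrobp in silica lungs and 14.3% ± 3.0 in air lungs at 1 month, and at 29.0% ± 1.8 in silica lungs and 12.97% ± 1.0 in air lungs at 6 months (SD, n = 5 each). At 9, 12 and 18 months it was 27.0% ± 2.1, 21.2% ± 2.8 and 24.4% ± 5.0 in silica lungs, against 13.4% ± 0.97, 14.8% ± 1.1 and 14.1% ± 0.95 in air lungs. From 6 months on, every silica lung had a higher ratio than every air lung, including replicate 3 of month 12 with 16.3%, against a highest air value of 16.2%. How many of all tested genes separate silica from air by their ratio to Tyrobp was not computed, nor how many such ratios would be called. The log2 ratio was higher in silica by 1.11 at 6 months, 0.96 at 9 months, 0.49 at 12 months and 0.73 at 18 months, each with an exact two-sided permutation p of 0.00794 and 0.0357 after adjustment over 18 ratios. Without replicate 3 the 12-month difference was 0.57. It differed by -0.13 at 1 month and 0.16 at 3 months (adjusted exact permutation p = 0.649 and 0.476).

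The Oscar to Tyrobp ratio differed between silica and air by -0.06 to 0.30 on the log2 scale, with an adjusted exact permutation p of 0.347 or more at all 6 times. The Fcar to Tyrobp ratio was 0.47 higher at 6 months and 0.32 higher at 18 months, short of the threshold (adjusted exact permutation p = 0.0952 and 0.0857). These ratios depend on the pseudocount, since both receptors lie near it. With 0.1 in place of 0.5, Fcar passed at 6, 9 and 18 months with log2 differences of 0.93, 0.64 and 0.68, and Oscar at 3 and 18 months with 0.51 and 0.59 (adjusted exact permutation p = 0.0179 to 0.0476). As plain FPKM, with no pseudocount, both receptors had a higher mean percentage of Tyrobp in silica than in air lungs at all 6 times. For Oscar it was 0.767% ± 0.12 against 0.568% ± 0.12 at 1 month (SD). At 6 months it was 1.12% ± 0.17 against 0.870% ± 0.21. For Fcar these values were 0.716% ± 0.19 against 0.549% ± 0.17 and 1.70% ± 0.51 against 0.756% ± 0.081. Differences in these percentages were not tested.

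**Figure D3:**
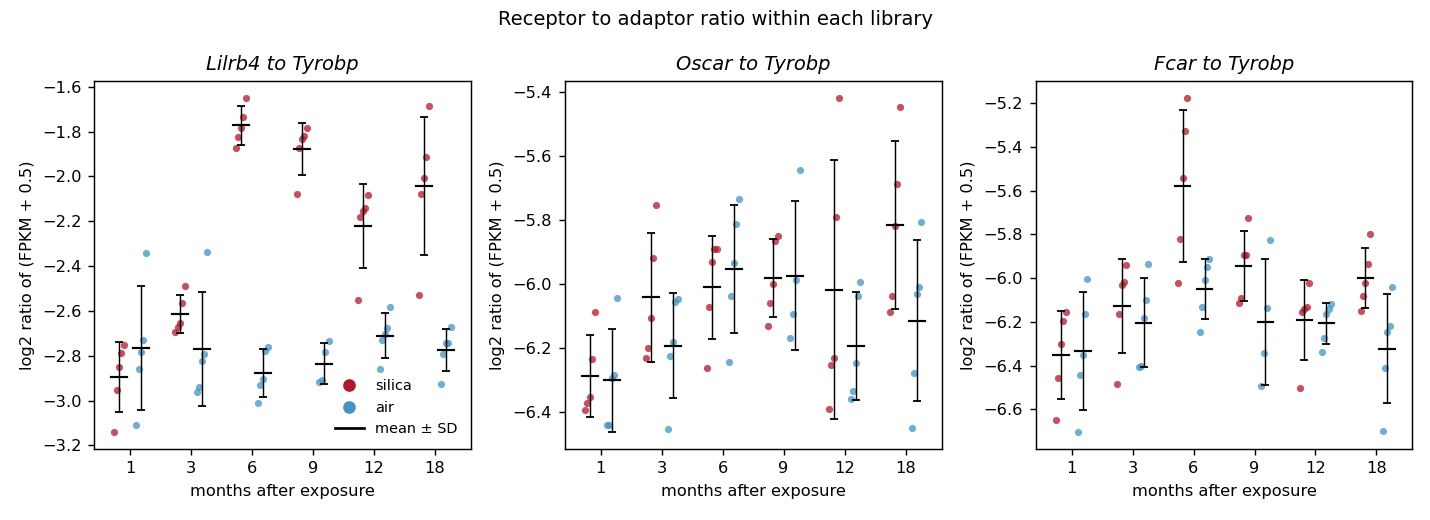
Log2 ratio of (FPKM + 0.5) of each receptor to Tyrobp within each library against months after exposure, silica to the left of air, with group mean ± SD. The Lilrb4 ratios of silica lungs lie above all air lungs of the month from 6 months on. With 0.5 added, the Oscar ratios of silica and air lungs overlap at every time. The share of all tested genes with ratios separated in this way was not computed.

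Among rats of the same group, the levels of Lilrb4, Oscar, Fcar and Tyrobp were correlated. Coefficients were higher in silica than in air lungs for each pair, with the 12-month silica replicate 3 among the silica lungs. With each library taken as its deviation from the mean of its group, Lilrb4 and Tyrobp correlated at r = 0.83 (rho = 0.68, n = 59; permutation within groups, adjusted p = 1.00e-04, the smallest it can give over 10 pairs). Leaving out the 2 libraries farthest from the median gave r = 0.71, and leaving out the 12-month silica replicate 3 gave r = 0.67. In silica lungs alone r was 0.90 (n = 30), and in air lungs alone 0.66 (n = 29). Fcar and Tyrobp had r = 0.61 and rho = 0.35, but r = 0.32 without the 2 farthest libraries, both of the 12-month silica group, so much of that value rests on them. Oscar had lower coefficients, with r = 0.46 to Tyrobp, 0.44 to Lilrb4 and 0.49 to Fcar, and rho of 0.38, 0.37 and 0.43 (adjusted permutation p of r between 0.00340 and 0.00802), and 0.39 for each without the 2 farthest libraries. Lilrb4 and Fcar had r = 0.60, rho = 0.43, and r = 0.43 without the 2 farthest. In all, 6 of the 10 pairs passed by r and also by rho (adjusted permutation p of rho up to 0.0185), and 5 without replicate 3, where Lilrb4 and Oscar had r = 0.33 (adjusted permutation p = 0.0693). Of all 816003 pairs of tested genes 3.68% had an r at least as high as the lowest of these 6, 0.44. Within silica lungs alone the 6 pairs had r between 0.49 and 0.90, and within air lungs alone between 0.30 and 0.66. Fcar and Lilrb4 had 0.71 in silica and 0.30 in air lungs, and Fcar and Tyrobp 0.72 and 0.33, differences that were not tested. Silica values without replicate 3 of month 12 were not computed, so these differences may rest on it. Over all libraries, leaving it out took Fcar and Lilrb4 from 0.60 to 0.34, and Fcar and Tyrobp from 0.61 to 0.34. The 4 pairs with Lilrb4-2 had r between 0.081 and 0.22 and did not pass. Library scaling is shared within each pair, and after median centring Lilrb4 and Tyrobp still had r = 0.81.

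**Figure D4:**
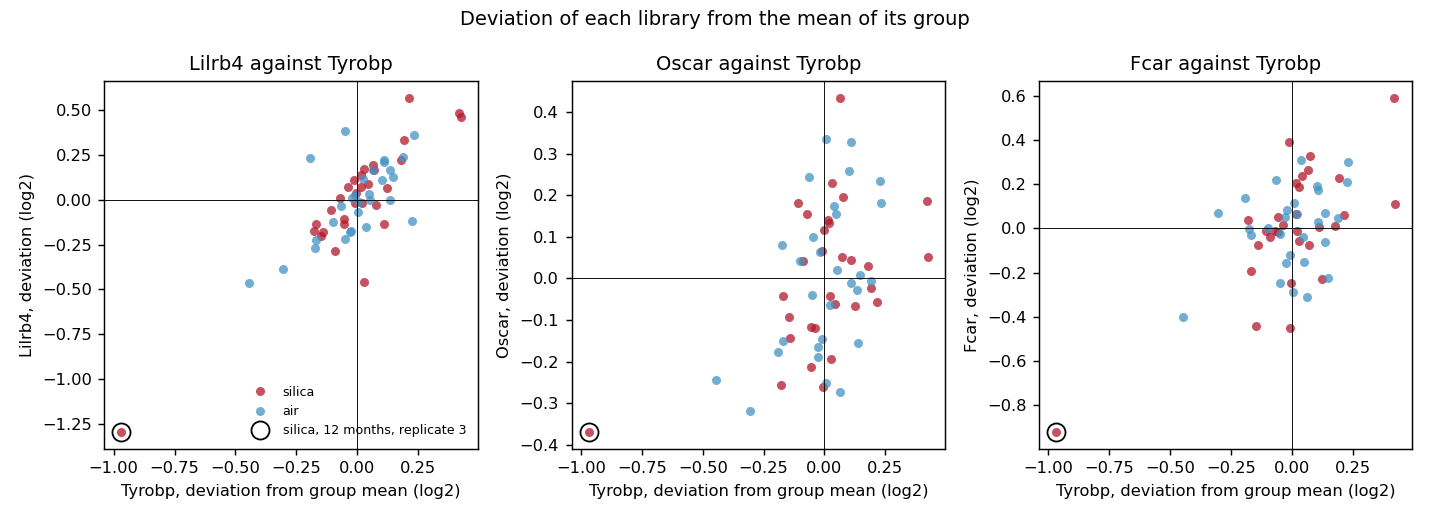
Deviation of each library from its group mean on log2(FPKM + 0.5), Lilrb4, Oscar and Fcar on the vertical axes against Tyrobp on the horizontal, for silica and air lungs (n = 59); the ring marks replicate 3 of the 12-month silica group. That library lies at the low end of all 3 panels, and the Lilrb4 points follow Tyrobp most closely, with r = 0.83.

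Of a list of 21 genes of the leukocyte receptor complex, 16 were in the table and 11 were tested, the receptors above among them. In the mean over times 6 were higher in silica and 1 was lower, against 37.5% of all tested genes called higher and 20.1% called lower. The median change of the 11 was 0.15, beside 0.032 over all tested genes. The counts and the median include the 4 receptor entries picked by name with earlier results known. Lilrb4, Fcar and Oscar are among the 6 higher genes, so these figures do not describe the rest of the complex. Besides Lilrb4, Fcar and Oscar, the higher ones were Lilrb3, an inhibitory receptor like Lilrb4 (0.33 ± 0.055, limma adjusted p = 1.36e-06), Lilrc2 (0.32 ± 0.068, 6.65e-05) and Lilra3 (0.15 ± 0.046, 0.00354). Ncr1, the natural killer cell receptor NKp46, fell by 0.27 (SE 0.071, limma adjusted p = 0.00123). Lilrb3l at -0.12 ± 0.059, Lilra5 at 0.035 ± 0.051, Gp6, the collagen receptor of platelets, at -0.023 ± 0.11, and Lilrb4-2 were not called. Lair1, Kir3dl1, Tarm1, Vstm1 and Ttyh1 did not pass the filter. Reads of neighbouring Lilr genes can fit several copies, which leaves levels of single Lilr entries uncertain.

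**Figure D5:**
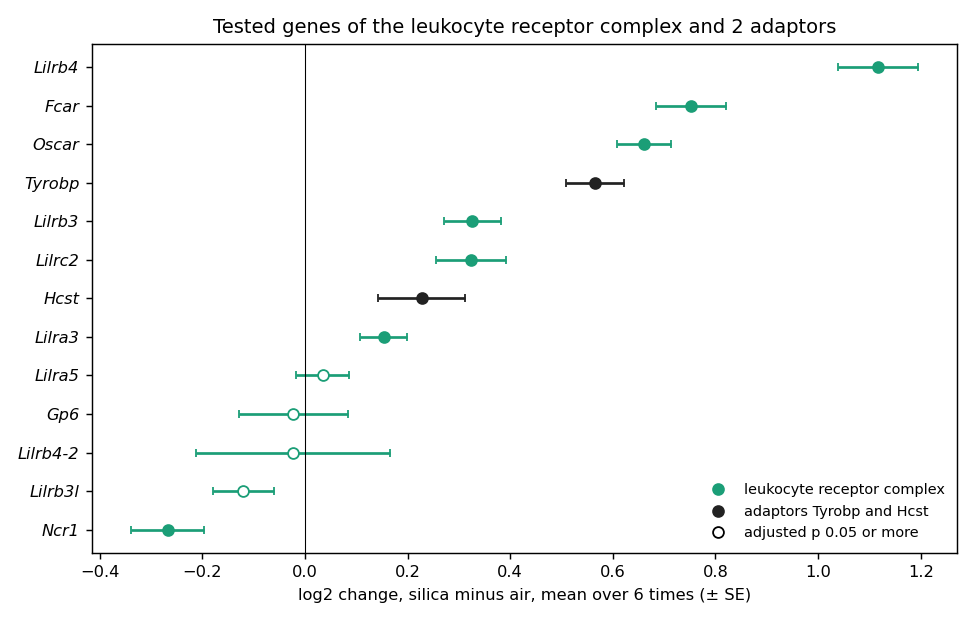
Log2 change, silica minus air, averaged over the 6 times, with its SE, for the 11 tested genes of the leukocyte receptor complex and the adaptors Tyrobp and Hcst; filled points have an adjusted p under 0.05. Lilrb4, Fcar and Oscar have the 3 largest changes of the 13 genes, and Ncr1 lies lowest at -0.27.

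Hcst, or DAP10, the adaptor next to Tyrobp that pairs with the natural killer receptor NKG2D, rose by 0.23 ± 0.085 (limma adjusted p = 0.0195), beside 0.56 for Tyrobp, a difference that was not tested. These were the 2 of 11 listed adaptor and ITAM chain genes in the table. Of 16 listed partners of Tyrobp outside the complex, 3 were present and 2 tested: Cd33, a siglec of myeloid cells (0.87 ± 0.071), and Itgam, the alpha chain of the integrin Mac-1 (0.93 ± 0.084), both higher. Of 17 genes listed as other inhibitory ITIM receptors 6 were tested, and 4 were higher: Cd33, Siglec8 (0.47 ± 0.044), Siglec10 (0.34 ± 0.054) and Siglec5 (0.20 ± 0.039). Cd33 is in this list and in that of Tyrobp partners, so the 2 counts share this gene. Ceacam1 at -0.067 ± 0.032 and the B cell receptor Cd22 at -0.12 ± 0.063 were not called. Of 13 other Fc receptor genes 2 were tested, and Fcgrt, which recycles IgG, fell by 0.088 (SE 0.038), while Trim21, the IgG receptor of the cytosol, was at -0.029 ± 0.030. Of 30 genes that signal downstream of ITAM and ITIM motifs the table held Lat, a T cell scaffold, at 0.057 ± 0.081.

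Markers of several cell types moved in the same comparison. Of 14 macrophage genes 4 were tested and all 4 were higher: Itgam, C5ar1, the C5a receptor (0.74 ± 0.059), Itgax, an integrin of alveolar macrophages (0.73 ± 0.055), and Apoe, a lipid carrier (0.39 ± 0.080). Their summed level ranged over 109.9 to 873 FPKM in silica lungs and 112 to 219 FPKM in air lungs, and none of the 4 was at 0 in a library. Most of this sum was Apoe, at 91.5 to 840 FPKM in silica and 99.1 to 201 FPKM in air lungs. Apoe was called higher at 3 times, with log2 changes of -0.012 at 1 month and 0.073 at 3 months. Of 10 neutrophil genes 3 were present and 2 tested, Cd177 (1.996 ± 0.093) and Ceacam10 (1.21 ± 0.084), both higher, with summed levels of all 3 of 14.3 to 56.5 FPKM in silica and 5.45 to 19.0 FPKM in air. Of 11 lung epithelium genes 4 were tested and all rose, Lpcat1 by 0.67 ± 0.042, Napsa by 0.64 ± 0.047, Folr1 by 0.60 ± 0.098 and Cebpa by 0.47 ± 0.043, with sums of 139 to 319.7 FPKM in silica and 131 to 167 FPKM in air. The part of these cell types in the changes of the 5 genes was not tested.

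Natural killer genes went the other way in part. Of 9 listed, 3 were tested: Nkg7, a granule protein of killer cells, fell by 0.38 (SE 0.060), Ncr1 fell as above, and Hcst rose. Of 8 B cell genes 4 were tested and Spib alone was called, falling by 0.25 (SE 0.092), with Cd37 at 0.059 ± 0.054. Of 10 T cell genes 3 were tested, of which the integrin gene Itgal rose by 0.27 ± 0.037 and Spn, or CD43, fell by 0.11 (SE 0.049). The single mast cell and basophil gene tested, Enpp3, rose by 1.00 ± 0.066, both eosinophil genes tested, Siglec5 and Siglec8, rose as above, and Gp6 was the only platelet gene. None of 10 osteoclast genes, the cells after which Oscar is named, was in the table, so they were not analysed here.

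Genes whose 6 changes over time were most like those of a member were sought among 991 tested genes with a symbol, by the root mean square difference of the log2 changes. Closest to Lilrb4 were Saal1 (0.26), Itgam (0.31), the urokinase receptor gene Plaur (0.34), Ceacam10 (0.38) and Rnaset2, a lysosomal ribonuclease (0.38). Saal1 had log2 changes of 0.25, 0.64, 1.51, 1.87, 1.41 and 1.36 from 1 to 18 months. Closest to Tyrobp were the lysosomal peptidase gene Prcp (0.077), Stard5 (0.091), the lactate dehydrogenase gene Ldha (0.091), Cebpa (0.10) and Ethe1 (0.11). Closest to Oscar were Prc1 (0.096), Apobr (0.12), Cited2 (0.12), Napsa (0.13) and Prcp (0.13), and closest to Fcar were Fxyd5 (0.16), Apobr (0.18), Cpxm2 (0.19), Cd33 (0.20) and Fxyd3 (0.20). The nearest gene to Lilrb4 was thus farther from it than the fifth nearest of each of the other 3 was from its own. This measure depends on the size of the changes, which went highest for Lilrb4. The greater distance therefore does not show a different shape over time. For Lilrb4-2 the nearest were Zfp36 (0.28), Zfp771, Prr12, Fah and Kctd21 (0.29 each), at changes that were themselves not called for Lilrb4-2.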

How the data were processed

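Total RNA of rat lung was sequenced after depletion of ribosomal RNA with a stranded kit, per the labels' protocols. The values the authors deposited are FPKM, 1 column per library. The submitters' processing notes name, with no role or order, TopHat2 2.0.9, Cufflinks 2.1.1, Trimmomatic 0.35, Bowtie2 2.2.9 and bcl2fastq 2.19. For the genome build and the handling of reads that fit several genes, the entry is: not given in the sources used here. FPKM carry no read counts, so no count model was used and depth is known only in relative terms. The last entry had 31 of 59 values and was left out.

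Entries with 1 FPKM or more in at least 4 libraries, 1278 (44.3%), were tested on log2(FPKM + 0.5) with limma 3.58.1 in R 4.3.3. All 12 groups entered one fit with an intensity trend, 47 residual and 3.41 prior degrees of freedom. Fold changes are on that scale and understate low genes. P-values were adjusted over all tested genes within a comparison by the Benjamini-Hochberg method, with a threshold of 0.05. They measure the spread between rats. Exact permutation tests, within-library ratios and within-group correlations (100000 permutations) were computed in Python 3.11.15, and the fit was tested on simulated data. Relative depth came from 261 entries above 0 in 3 to 15 libraries, of whose 1997 values 67.0% lay within log2 0.1 of a first step and 9.36% of a second. No 2 of 116 library pairs within groups were identical. The members and lists were chosen with earlier results of these data known. From the leukocyte receptor complex list up to 6 genes are named, from every other list up to 4, by smallest p in the mean over times; others were named after their values were seen. For each member the 5 genes with the most similar changes are named. A gene that this rule names is not reported here.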

Additional observations from a re-analysis of the deposited data

Results flagged for a closer look

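Lilrb4 differed between times: the F statistic over the 6 changes was 9.11 (limma adjusted p = 0.00195), and the change at 6 months was 1.18 above that at 3 months (limma adjusted p = 0.0379).

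In 59 sets of 4 or 5 rats, 4 single values lay far from the rest of their group. For genes without many values at 0, chance gives about 1 in 20. Oscar was at 2.26 FPKM in the 18-month silica replicate 2, where the group median was 1.46 FPKM. The other 3 were Lilrb4-2 values in groups otherwise at 0: 0.592 FPKM in the 18-month silica replicate 1, 0.678 FPKM in the 9-month air replicate 2 and 0.709 FPKM in the 12-month air replicate 3, each a single step. A lone value above 0 in such a group is always flagged, so the rate of 1 in 20 does not apply to these 3. The 12-month silica replicate 3, low in Lilrb4, Fcar and Tyrobp, did not reach this limit.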

How the results depend on the processing

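No paired analysis was possible because the labels give each rat a number of its own. The mean change over the times kept its call and direction for Lilrb4, Oscar, Fcar and Tyrobp under every setting tried. A filter of 5 FPKM left Lilrb4 and Tyrobp as the members to test, so calls were 1 at 1 month and 2 at each later time and in the mean. At 1 month the members called, 2 in the main setting, were 1 with no filter, 0 with median centring, 1 with quantile normalization, and 0 to 3 without a library. At 12 months they were 0 in a fit of that time alone and 1 by exact tests, against 4. The adjusted p of the variation between times fell to 0.0335 for Fcar with library weights, making 2 genes called. The Lilrb4 difference between 6 and 3 months, 1.18, had a limma adjusted p of 0.0559 with no filter and lay between 1.08 and 1.23 without a library. Leaving out any of 12 libraries ended this call: at month 3 the silica replicates 1, 3 and 4 and the air replicates 2, 3 and 4, at month 6 the silica replicates 1, 3, 4 and 5 and the air replicates 2 and 4. Oscar's age difference in air was 0.31 with median centring and 0.27 with quantile normalization, and 0.34 to 0.46 without a library, with its call lost without air replicate 2 or 3 of month 1 or 2 or 5 of month 18. Calls at 1 month were lost without air replicate 2 or 3 or silica replicate 5 for Oscar, and for Tyrobp also without air replicate 5 or silica replicate 2, 3 or 4. Ratios called were 9 with a pseudocount of 0.1, against 4. Without a library the Lilrb4 ratio lost its call in all 9 fits at 9 months, and in 5 of 10 fits at 12 and at 18 months. The log2 differences stayed at 0.93 to 1.01, 0.45 to 0.57 and 0.64 to 0.85. At 9 months, where air held 4 rats, a test without a rat has fewer splits and cannot give as small an exact p. Those 9 losses thus do not describe the size of the difference. The losses at 12 and 18 months came without an air rat, and their cause was not tested. FPKM give no counts, so the counting error of Oscar, Fcar and Lilrb4-2 is unknown.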
